A study of Mus musculus with 9 samples.

Results

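Accessibility was described at 10 genes for transcription factors of the pancreatic endocrine lineage: Neurod1, Nkx2-2, Insm1, Prox1, Myt1, Glis3, Hhex, Rfx6, Neurog3 and St18. Their regions were the consensus open regions that overlap the mm10 (GRCm38) body of each gene extended by 10 kb on both sides. Of 80827 regions in the whole data set, 74 met this rule, and they belong to 9 of the 10 genes. No region of the files used here overlapped the window of Hhex. The cells were alphaTC1, a murine line of glucagon-producing pancreatic alpha cells, and all groups share this line. They were taken 5 days after transduction with an empty vector, an shRNA against Smndc1 (Smndc1 shRNA), which encodes a Tudor domain splicing factor, or an shRNA against Atrx (Atrx shRNA), which encodes a chromatin remodeler. Each of the 3 groups had 3 libraries, described by the submitters as separate biological replicates. ATAC-seq was used, in which a transposase inserts adapters where DNA is accessible. Accessibility is no check of an shRNA, which acts on RNA.

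Pancreatic progenitors enter the endocrine fate when the basic helix-loop-helix factor Neurog3 is switched on for a short time. Neurog3 activates a set of longer-lived factors, among them Neurod1, Insm1, Nkx2-2 and Myt1, which carry the program on in hormone-producing cells after Neurog3 itself has been shut off. Prox1, Rfx6, Glis3 and Hhex act in progenitors and then in particular islet cell types; Prox1 is retained in alpha cells, and Hhex marks delta cells in the adult islet.

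Promoter sequences of the genes that the results turn on are given from RefSeq (GRCm38.p6), as the 250 bases before a listed start, 5′ to 3′ on the gene's strand. The table held 11 promoters for 8 of the 10 genes. Of these 11, 6 overlapped an open region and 5 did not. Capitals mark a match, on either strand, to one of 5 strings: the E-boxes CAGATG and CAGCTG, the NK2 core TNAAGTG, the forkhead core TGTTTAC and the homeobox core TAATTA. Each string was searched separately, so matches to different strings could overlap. The Neurod1 promoter (chr2:79456637-79456886, minus strand) lies wholly in an open region. So does the listed Nkx2-2 promoter (chr2:147186403-147186652, minus strand). The first Prox1 promoter (chr1:190170828-190171077, minus strand) has 183 of its bases in an open region and the second (chr1:190169516-190169765, minus strand) has 165. The Neurog3 promoter (chr10:62132840-62133089, plus strand) is shown for contrast, since no open region overlapped it.
Neurod1: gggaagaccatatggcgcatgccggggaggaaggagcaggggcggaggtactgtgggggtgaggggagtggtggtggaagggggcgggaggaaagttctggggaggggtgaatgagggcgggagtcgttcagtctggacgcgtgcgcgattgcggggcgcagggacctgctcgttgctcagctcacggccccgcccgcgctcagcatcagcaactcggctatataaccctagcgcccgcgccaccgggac
Nkx2-2: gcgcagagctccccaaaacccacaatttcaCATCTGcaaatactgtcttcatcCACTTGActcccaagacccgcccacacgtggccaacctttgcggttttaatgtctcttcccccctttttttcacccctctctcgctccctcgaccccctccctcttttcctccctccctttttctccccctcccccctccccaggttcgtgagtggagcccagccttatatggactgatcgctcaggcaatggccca
Prox1, first listed start: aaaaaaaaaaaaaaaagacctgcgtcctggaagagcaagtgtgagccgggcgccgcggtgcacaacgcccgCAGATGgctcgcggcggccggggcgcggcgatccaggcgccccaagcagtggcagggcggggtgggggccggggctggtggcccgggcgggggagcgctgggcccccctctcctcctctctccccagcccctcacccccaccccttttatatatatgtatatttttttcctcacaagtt
Prox1, second listed start: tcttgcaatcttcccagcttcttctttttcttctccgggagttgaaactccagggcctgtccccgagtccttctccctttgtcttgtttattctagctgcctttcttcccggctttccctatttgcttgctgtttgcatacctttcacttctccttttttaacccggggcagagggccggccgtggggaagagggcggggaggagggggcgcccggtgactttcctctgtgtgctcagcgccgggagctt
Neurog3: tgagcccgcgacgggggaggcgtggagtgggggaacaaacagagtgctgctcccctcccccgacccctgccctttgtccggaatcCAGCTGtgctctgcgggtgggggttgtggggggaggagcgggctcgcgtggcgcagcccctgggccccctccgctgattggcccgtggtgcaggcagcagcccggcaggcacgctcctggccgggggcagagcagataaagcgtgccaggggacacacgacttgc
CAGATG was found in 2 of the 11 promoters (Nkx2-2 and the first of Prox1) and in 14.4% of all 32851 promoters cut to the same length. CAGCTG was found in 2 (Neurog3 and Glis3) and in 13.0% of all. TNAAGTG was found in the promoter of Nkx2-2 and in 10.1% of all, and TGTTTAC in the second of 3 Myt1 promoters, with 2 matches there, and in 3.17% of all. TAATTA was in 0 of the 11 and in 4.84% of all. These matches describe letters in a window and not binding. GC content was 71.2% in the closed Neurog3 promoter, 67.6% in the open Neurod1 promoter and 56.4% in that of Nkx2-2, beside a median of 52.4% over all promoters.

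Library totals ran from 5.29 to 8.15 M counts. In replicate 3 of every group, the strongest 10% of regions held 38.5 to 38.8% of counts, beside 43.3 to 48.8% in the other 6 libraries. Strong regions therefore tend to read lower in the replicate 3 libraries on the scale of TMM-normalised CPM (counts scaled by library size). For this reason each comparison is given by 2 edgeR fits, one with a single TMM factor per library and one with trended offsets, in which a curve over the mean level of a region evens out that contrast. A region was called when its adjusted p was under 0.05 over all 80345 regions tested. All 10 alpha cell marker genes had an open region, with summed levels of 814 to 1029 CPM in the empty vector libraries. Of 8 beta cell marker genes 6 had one, and Ins1 and Ucn3 had none. Of 3 delta cell markers 2 had one, the gene without a region being Hhex. Regions were also present at 5 of 7 acinar, 4 of 5 duct, 4 of 4 mesenchyme, 3 of 3 endothelial and 2 of 3 immune marker genes. Those without a region were Ptf1a and Amy2a5 (acinar), Krt19 (duct) and Cd3e (immune).

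All 74 member regions passed the filter on low counts. Of these, 53 lie in a gene body and 21 in the flanks, and 6 overlap a listed promoter. Their width was 501 to 1256 bp with a median of 501, and their mean count over the 9 libraries was 11.9 to 825 with a median of 50.9, beside 33 for all regions. In empty vector, 44 of the 74 were at or above the median level of all regions per kb, and 12 were in the top 10%. At Insm1, 1 flank region lies in the body of Cfap61, and 2 flank regions of Myt1 lie in the body of Pcmtd2, so these 3 cannot be assigned to the member gene alone. By windows of body and 10 kb, 6 members are shared with another coding gene. These include all 4 Insm1 regions, which lie in the window of Cfap61 or Ralgapa2, so the Insm1 sums carry the same limit.

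The 9 genes with regions differed in how open they were. The counts of a window were summed and then scaled by the totals and TMM factors of the table of windows, so a window level is not the sum of the region CPM. Over the 9 genes it was 0.763 to 0.947 of that sum, depending on the library, and the factor was 0.935 to 0.947 in the replicate 3 libraries and 0.763 to 0.846 in the others. Per kb of open region, the summed empty vector level was highest at Nkx2-2, the homeodomain factor, at 51.1 ± 4.46 CPM per kb (mean ± SD, n = 3). Myt1, a zinc finger factor, followed at 34.8 ± 3.16, and the 3 libraries of these genes did not overlap with each other or with any gene below. Neurod1 (20.3 ± 2.25), Prox1 (19.8 ± 2.75) and Insm1 (18.8 ± 2.5 CPM per kb) came next, and their libraries overlapped. St18, a relative of Myt1, stood at 11.6 ± 0.925 and Glis3, a Krüppel-like zinc finger factor, at 9.40 ± 0.937; the lowest St18 library (10.5) was just above the highest of Glis3 (10.4). Neurog3 (8.26 ± 0.668) and Rfx6, a winged helix factor (7.22 ± 0.988), were lowest and overlapped. The Neurog3 libraries (7.51 to 8.79) also overlapped those of Glis3 (8.62 to 10.4). With Smndc1 shRNA the levels were 54.8 ± 9.41 at Nkx2-2, 34.0 ± 0.735 at Myt1, 28.1 ± 3.09 at Prox1, 23.6 ± 2.96 at Neurod1 and 23.5 ± 2.21 at Insm1. With Atrx shRNA they were 63.4 ± 8.22, 35.9 ± 1.75, 25.8 ± 1.05, 25.7 ± 4.48 and 20.9 ± 0.493 CPM per kb. Thus Nkx2-2 and Myt1 held the first places in each group. On sums of region CPM the order of the 9 empty vector means and the overlaps just given were the same, with 49.0 to 68.7 CPM per kb at Nkx2-2 and 35.6 to 48.8 at Myt1.

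**Figure D1:**
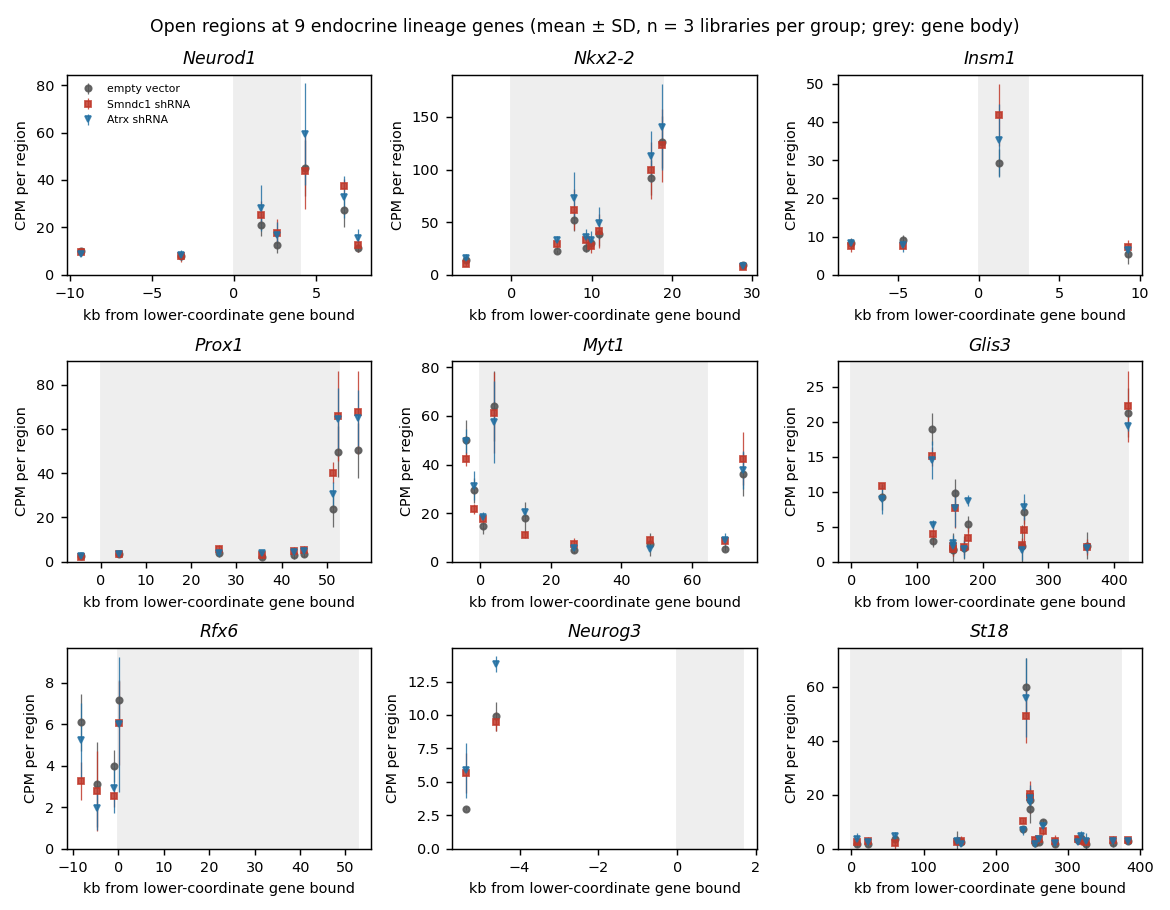
Level of each open region (CPM, mean ± SD of 3 libraries per group) against its distance in kb from the lower-coordinate bound of the gene, with the gene body in grey, for the 9 genes that have a region. Prox1 has 2 strong regions at the upper end of its body and 1 beyond it, 4.0 kb upstream of its first start, while both Neurog3 regions lie outside its body.

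The map of regions by distance shows that most of the signal of a gene sat in a few regions. The strongest region of Nkx2-2 (chr2:147194761-147195710) lies at the upper end of its annotated body, 8.83 kb upstream of the listed start, at 132.6 CPM per kb in empty vector, the 99.6th percentile of all regions. Its level was 141.6, 139.0 and 97.4 CPM in empty vector replicates 1 to 3, 123.1, 158.0 and 88.0 with Smndc1 shRNA and 182.3, 139.4 and 100.8 with Atrx shRNA. The lowest library of each group is replicate 3, and the groups overlap. The strongest region of a gene is here the one with the highest mean CPM over the 9 libraries, with no division by width. At Nkx2-2, St18, Neurod1, Insm1 and Neurog3 that region was also the highest of its gene per kb in empty vector. For St18 it lies inside the body (chr1:6729189-6730082, 67.0 CPM per kb, 95.9th percentile), and for Neurod1 it is the promoter region (chr2:79456410-79457512, 41.0 CPM per kb). For Insm1 it lies in the body (chr2:146222818-146223641, 35.7 CPM per kb), and for Neurog3 4.60 kb upstream of the start (chr10:62128091-62128892, 12.4 CPM per kb). At the other 4 genes a narrower region was higher per kb. For Myt1 the highest mean CPM was at the second listed start (chr2:181766770-181767870, 58.4 CPM per kb), while a region in the upstream flank (chr2:181758975-181759570) had 84.2 CPM per kb, the 97.8th percentile. For Prox1 it was the upstream region (chr1:190174203-190175458, 40.1 CPM per kb), while the region at the first listed start (chr1:190169992-190171010) had 48.9. For Glis3 it was the promoter region (chr19:28679502-28680364, 24.7 CPM per kb), while a region in the body (chr19:28381903-28382512) had 31.1. For Rfx6 it was at the lower end of the body (chr10:51677507-51678352, 8.45 CPM per kb), while a flank region (chr10:51669247-51669747) had 12.15. No open region overlapped the listed promoter of Neurog3, Rfx6 or Hhex.

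**Figure D2:**
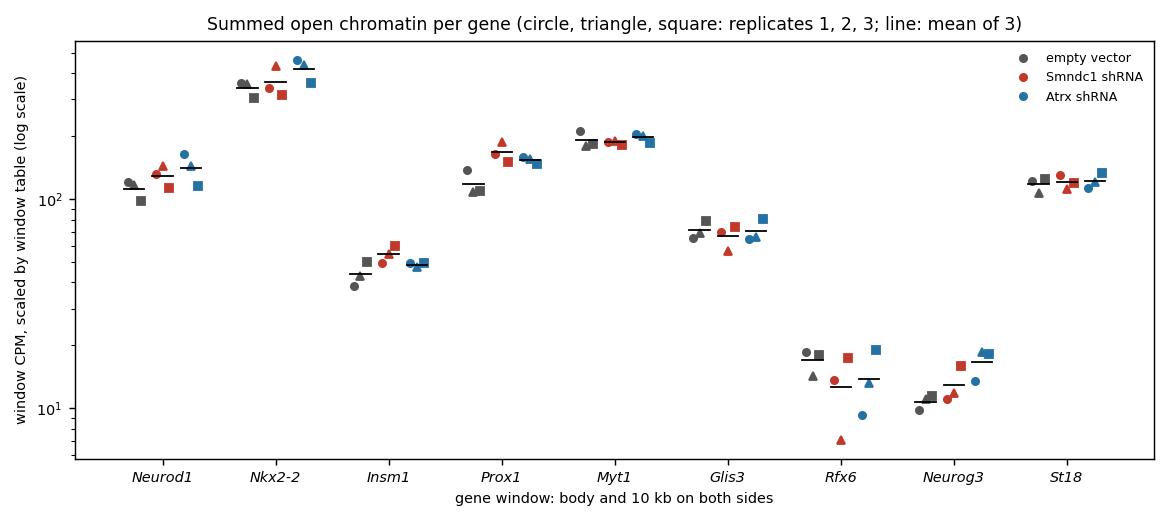
Level of each gene window (log scale) in the 9 libraries, as counts summed over its regions and scaled to CPM by the totals and TMM factors of the window table, with the mean of each group as a line. On this scale Prox1 is the gene whose Smndc1 shRNA libraries (150.6 to 187.0) and Atrx shRNA libraries (146.8 to 158.8) all lie above its empty vector libraries (108.1 to 137.2); on sums of region CPM they overlap.

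Summed over whole windows, 0 of the 9 genes passed the edgeR test in any of the 3 comparisons with TMM factors, and 0 with trended offsets. Over all 17004 genes tested with TMM factors, 0% were called in either comparison with empty vector and 0.0118% between the shRNAs. With trended offsets these shares were 0.0118% for Smndc1 shRNA, 0% for Atrx shRNA and 0.0118% between them. At an unadjusted p under 0.05 with TMM factors there were 2, 4 and 0 of the 9 genes for Smndc1 shRNA, Atrx shRNA and the difference between them. Over all 17004 genes these counts were 1393, 1309 and 944. DESeq2 called 1 gene (Prox1, Smndc1 shRNA), beside 0.194% of all genes in that comparison, and limma voom 0. The 2 comparisons with empty vector share its 3 libraries.

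Prox1, the homeodomain factor, had the smallest p among the summed windows. On the window scale its sums were 137.2, 108.1 and 109.6 CPM in empty vector, 164.2, 187.0 and 150.6 with Smndc1 shRNA and 158.8, 155.9 and 146.8 with Atrx shRNA. On this scale both shRNA groups lie above empty vector and overlap each other. As sums of region CPM they were 174.5, 137.2 and 116.8 in empty vector, 194.1, 241.0 and 161.1 with Smndc1 shRNA and 208.1, 185.9 and 155.0 with Atrx shRNA. There empty vector replicate 1 lies above replicate 3 of both shRNAs, so the groups overlap. The log2 difference with TMM factors was 0.50 ± 0.11 (SE) for Smndc1 shRNA (95% interval 0.27 to 0.73, edgeR adjusted p = 0.321). For Atrx shRNA it was 0.38 ± 0.11 (0.15 to 0.61, adjusted p = 0.61). DESeq2 gave 0.50 with adjusted p = 0.0164 for Smndc1 shRNA. With trended offsets the Smndc1 shRNA difference was 0.49 (adjusted p = 0.162), and without replicate 3 of Smndc1 shRNA it was 0.55 (adjusted p = 0.0322), so leaving out that library moved it past the threshold.

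The other direct regulators of the endocrine program gave smaller or less certain sums, here on the window scale with TMM factors. Neurog3, with 9.79, 11.04 and 11.5 CPM in empty vector, 11.1, 11.8 and 16.0 with Smndc1 shRNA and 13.5, 18.6 and 18.1 with Atrx shRNA, had all Atrx shRNA libraries above empty vector, also on sums of region CPM (0.63 ± 0.24, adjusted p = 0.614). At Nkx2-2 the sums were 358.6, 353.8 and 305.1 CPM in empty vector, 340.6, 434.3 and 315.9 with Smndc1 shRNA and 464.3, 438.5 and 359.6 with Atrx shRNA. The lowest Atrx shRNA library of Nkx2-2 is just above the highest of empty vector on this scale, and the groups overlap on sums of region CPM (379.7 to 608.4 beside 325.1 to 455.8). The difference was 0.31 ± 0.12 (adjusted p = 0.614). Neurod1 differed by 0.34 ± 0.13 with Atrx shRNA (adjusted p = 0.614) and by 0.22 ± 0.13 with Smndc1 shRNA (adjusted p = 0.702), and its libraries overlap. Insm1 differed by 0.32 ± 0.12 with Smndc1 shRNA (adjusted p = 0.536) and by 0.16 ± 0.12 with Atrx shRNA (adjusted p = 0.786), and its Smndc1 shRNA libraries overlap empty vector on the window scale but not on sums of region CPM (58.5 to 70.5 beside 48.9 to 54.3).

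None of the remaining 4 genes passed the test. Myt1 differed by -0.03 with Smndc1 shRNA (95% interval -0.21 to 0.15) and by 0.05 with Atrx shRNA (-0.13 to 0.23), on the log2 scale with TMM factors. St18 differed by 0.04 (-0.17 to 0.24) and 0.06 (-0.15 to 0.26). Glis3 differed by -0.09 (-0.36 to 0.18) and -0.01 (-0.28 to 0.26). Rfx6, with the fewest counts among genes with 4 or more regions, differed by -0.42 (-1.09 to 0.26) and -0.29 (-0.97 to 0.38), so its intervals are wide. For these 4 genes the libraries of the groups overlap on both scales.

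Single regions were then tested. With TMM factors, 0 of the 74 regions were called with Smndc1 shRNA, where 0.0199% of all regions were called higher and 0.136% lower. With Atrx shRNA 0 members were called, beside 0% of all regions. Between the shRNAs 0 members were called, beside 0.0224% higher and 0.0535% lower with Smndc1 shRNA. At an unadjusted p under 0.05 edgeR had 7, 6 and 8 members in these comparisons, beside 6500, 4618 and 4337 of 80345 regions. DESeq2 had 6, 4 and 5 members with 0 called, beside 5522, 3806 and 3483 of all regions. For limma voom it was 8, 5 and 9 members with 0 called, beside 6579, 4394 and 3913 of all regions. With trended offsets, 5 members were called higher and 0 lower with Smndc1 shRNA, which is 5 of 74 beside 0.416% of all regions higher and 0.717% lower. With Atrx shRNA 1 was called higher and 0 lower, beside 0.195% and 0.0734%. Between the shRNAs 0 were called higher and 2 lower with Smndc1 shRNA, beside 0.205% and 0.387%.

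The members leaned to higher values in both comparisons with empty vector. With TMM factors the median log2 difference with Smndc1 shRNA was 0.16 over members and 0.02 over all regions, with 45 of 74 members above 0 and 51.8% of all regions. With Atrx shRNA it was 0.18 beside 0.01, with 47 above 0 and 50.7% of all. With trended offsets the medians were 0.13 beside 0.01 for Smndc1 shRNA and 0.14 beside -0.02 for Atrx shRNA. Between the shRNAs the member median was -0.03 with TMM factors and -0.04 with trended offsets. Regions of marker genes for other cell types also had medians above 0 with Smndc1 shRNA. At the 13 endothelial marker regions the median was 0.42 with TMM factors (10 above 0) and 0.39 with trended offsets, and at 9 tested duct regions 0.32 (7 above 0) and 0.40. Over the alpha, beta, delta, acinar, mesenchyme and immune lists it ran from -0.10 to 0.18 with TMM factors and from -0.05 to 0.26 with trended offsets. The summed endothelial level was 105.1 to 138.1 CPM in empty vector, 122.7 to 144.0 with Smndc1 shRNA and 107.9 to 127.9 with Atrx shRNA. The summed duct level was 95.3 to 115.4, 121.9 to 130.2 and 105.8 to 130.4 CPM, so for duct the Smndc1 shRNA libraries lie above empty vector. No region of these 2 lists was called with Smndc1 shRNA. The summed mesenchyme level was 250.3 to 265.0 CPM in empty vector, 215.2 to 242.6 with Smndc1 shRNA and 234.1 to 239.4 with Atrx shRNA. Both shRNA groups thus lie below empty vector there. With trended offsets, edgeR called 5 alpha and 1 beta cell marker regions higher with Smndc1 shRNA. It called 1 mesenchyme region lower, at Col1a1 (-0.5 ± 0.12, adjusted p = 0.0121). With Atrx shRNA the medians were 0.09 for endothelial and -0.06 for duct regions, and ran from -0.01 to 0.18 over the other 6 lists, with 9 of 10 immune regions above 0 (TMM factors). The part of these cell types in the members' values was not tested. On TMM levels, all 3 Smndc1 shRNA libraries lay above all 3 of empty vector at 9 members and below at 7, beside 5.76% and 7.02% of all regions. For Atrx shRNA this held at 6 and 2 members, beside 4.83% and 5.65%. Smndc1 shRNA lay above Atrx shRNA at 4 and below at 8, beside 5.03% and 5.15%. On levels corrected by trended offsets, all 3 Smndc1 shRNA libraries lay above all 3 of empty vector at 13 members and below at 6, beside 7.73% and 8.45% of all regions. For Atrx shRNA this held at 17 members above and 3 below, beside 7.31% and 7.6%. Between the shRNAs these counts were 4 and 7, beside 7.03% and 6.97%. The 38 members with a mean count of at least 50 held all 5 Smndc1 shRNA calls and the Atrx shRNA call. Over all regions, those with such counts held 276 of the 334 higher calls for Smndc1 shRNA. For Atrx shRNA they held 131 of 157, so this placing is not particular to the members.

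**Figure D3:**
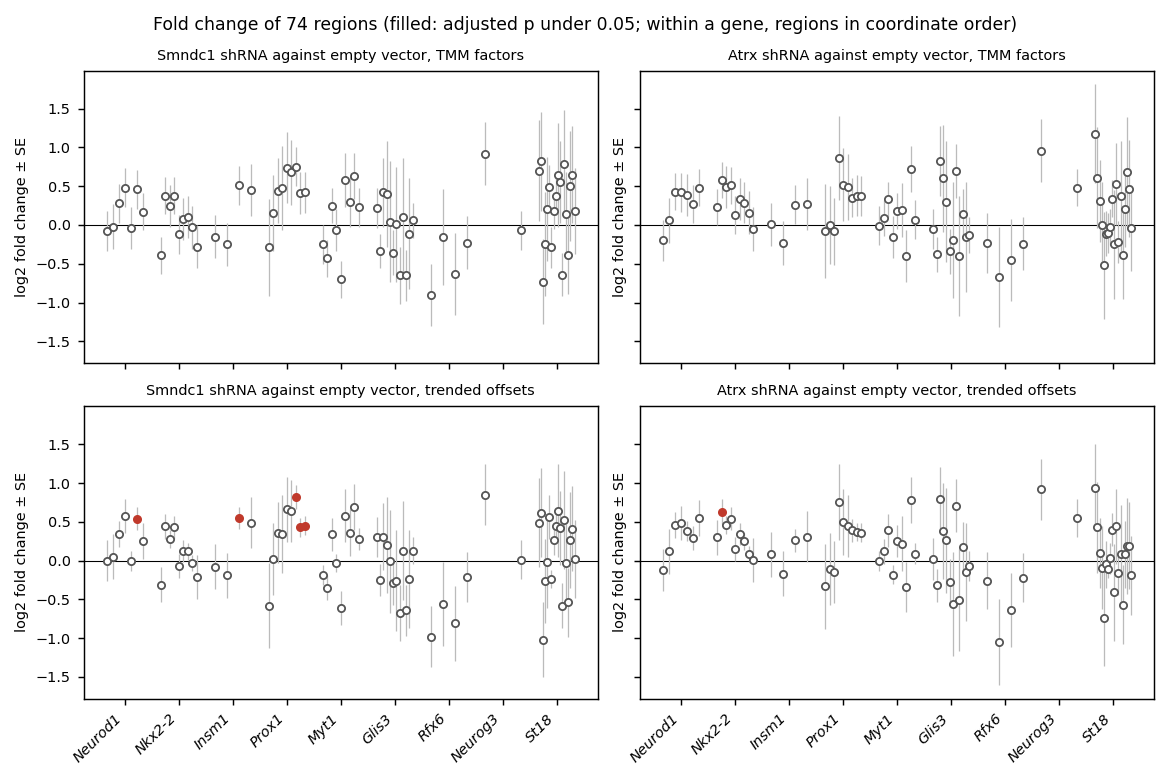
log2 difference ± SE of the 74 regions by gene for each shRNA against empty vector, with TMM factors (top) and trended offsets (bottom); filled points passed an adjusted p of 0.05. With trended offsets the filled points for Smndc1 shRNA are 3 regions of Prox1 and 1 each of Neurod1 and Insm1, and for Atrx shRNA 1 region of Nkx2-2.

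By gene, with trended offsets, 8 of the 9 Prox1 regions were above 0 with Smndc1 shRNA (median 0.43) and 6 with Atrx shRNA (median 0.37). All 9 Nkx2-2 regions were above 0 with Atrx shRNA (median 0.30), and 5 with Smndc1 shRNA (0.12). At Neurod1, 6 of 7 regions were above 0 with each shRNA (medians 0.25 and 0.38). All 4 Rfx6 regions were below 0 with both (medians -0.69 and -0.45), with none called. Myt1 and St18 had regions on both sides, 5 of 9 and 11 of 18 above 0 with Smndc1 shRNA.

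The region around the second listed start of Prox1 (chr1:190169001-190169680) was the clearest single difference. Its level was 32.1, 23.5 and 16.1 CPM in empty vector, 39.0, 45.4 and 36.2 with Smndc1 shRNA and 35.2, 31.7 and 24.7 with Atrx shRNA. Every Smndc1 shRNA library lies above every empty vector library, and replicate 3 is the lowest library of all 3 groups. With trended offsets it rose 1.77-fold with Smndc1 shRNA (log2 difference 0.82 ± 0.15, adjusted p = 0.000223). TMM factors gave 0.75 ± 0.25 (adjusted p = 0.268), and TMM factors with a mean count of at least 50 gave 0.83 (adjusted p = 0.0151). In bulk libraries, more cells with a region open and a region more open in each cell cannot be told apart. With Atrx shRNA the trended difference was 0.39 ± 0.15 (adjusted p = 0.336), and between the shRNAs it was 0.43 ± 0.15 (adjusted p = 0.206). Leaving out each of the 9 libraries in turn kept it called with trended offsets in all 9 fits, with differences of 0.71 to 1.02 and adjusted p of 0.000144 to 0.021.

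The 2 other strong Prox1 regions also passed with trended offsets and not with TMM factors. The region at the first listed start (chr1:190169992-190171010) was at 61.5, 49.7 and 38.2 CPM in empty vector, 65.4, 86.6 and 46.0 with Smndc1 shRNA and 75.5, 69.3 and 49.2 with Atrx shRNA. On this scale the groups overlap. With trended offsets it rose by 0.43 ± 0.12 with Smndc1 shRNA (adjusted p = 0.0406; TMM factors 0.41, adjusted p = 0.75), and the Atrx shRNA difference was 0.37 ± 0.12 (adjusted p = 0.197). Of the 9 fits that leave out 1 library, 3 called it. Its adjusted p was 0.0581, 0.341 and 0.0923 without empty vector replicate 1, 2 or 3, 0.124 and 0.238 without Smndc1 shRNA replicate 1 or 2, and 0.0604 without Atrx shRNA replicate 2. The region 4.0 kb upstream of the first start (chr1:190174203-190175458) was at 63.7, 48.2 and 39.1 CPM in empty vector, 64.9, 87.5 and 50.2 with Smndc1 shRNA and 79.0, 61.5 and 54.5 with Atrx shRNA. It rose by 0.45 ± 0.12 with Smndc1 shRNA (trended offsets, adjusted p = 0.027; TMM factors 0.42, adjusted p = 0.731). It was called in 5 of 9 fits, with adjusted p of 0.352 and 0.0645 without empty vector replicate 2 or 3 and 0.0728 and 0.165 without Smndc1 shRNA replicate 1 or 2. The other 6 Prox1 regions were weak, at 0.847 to 7.78 CPM in any library, and none was called.

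**Figure D4:**
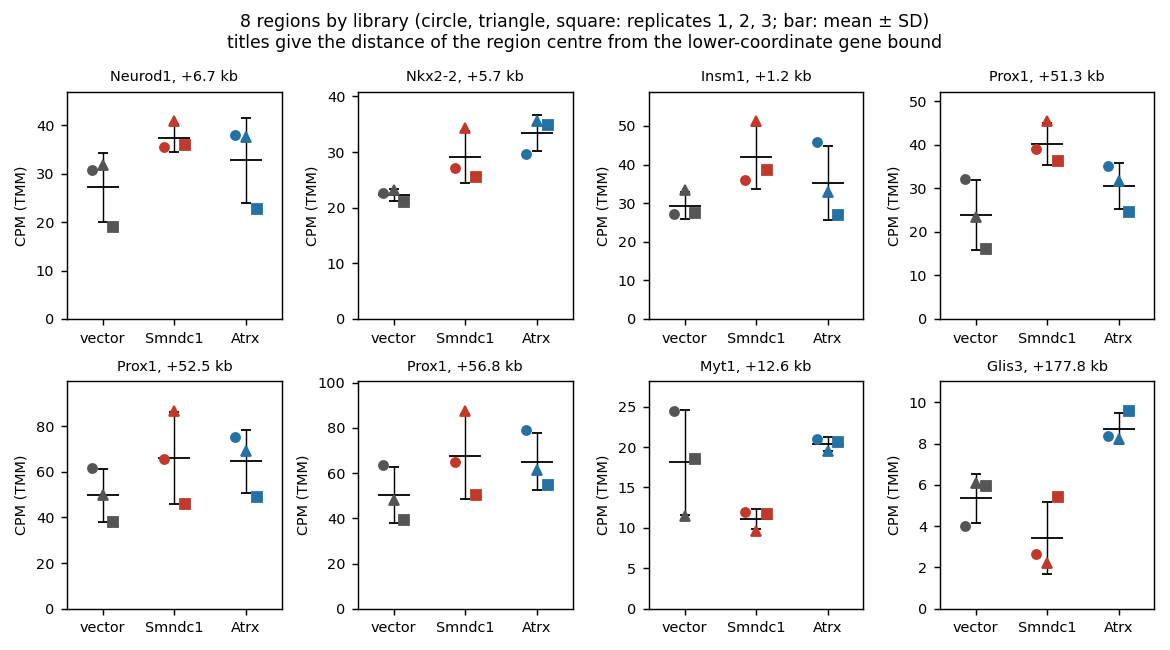
CPM (TMM) of the 8 regions called in any comparison with trended offsets, by library, with mean ± SD of each group (n = 3) and axes from 0. In the Prox1 region at +51.3 kb the Smndc1 shRNA libraries (36.2 to 45.4) all lie above empty vector (16.1 to 32.1), and in the Glis3 region the Atrx shRNA libraries (8.21 to 9.58) lie above both other groups.

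Neurod1, the helix-loop-helix factor downstream of Neurog3, had a called region 2.72 kb upstream of its start (chr2:79458989-79459726). Its level was 30.8, 31.8 and 18.9 CPM in empty vector, 35.6, 40.8 and 35.9 with Smndc1 shRNA and 38.1, 37.6 and 22.7 with Atrx shRNA. The Smndc1 shRNA libraries lie above empty vector, while the Atrx shRNA libraries overlap it. With trended offsets it rose by 0.54 ± 0.15 with Smndc1 shRNA (adjusted p = 0.0379; TMM factors 0.46, adjusted p = 0.66). With 1 library left out, 2 of 9 fits called it. The adjusted p was 0.138, 0.103 and 0.161 without empty vector replicate 1, 2 or 3, 0.0779, 0.0597 and 0.135 without Smndc1 shRNA replicate 1, 2 or 3, and 0.0618 without Atrx shRNA replicate 2. The Neurod1 promoter region itself (54.4, 49.3 and 31.9 CPM in empty vector, 38.7, 62.0 and 31.0 with Smndc1 shRNA, 81.6, 57.5 and 38.8 with Atrx shRNA) was not called. Its trended difference was -0.01 ± 0.13 with Smndc1 shRNA (95% interval -0.27 to 0.25) and 0.38 ± 0.13 with Atrx shRNA (adjusted p = 0.229).

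At Insm1, a zinc finger repressor that recruits corepressor complexes, the region in the gene body (chr2:146222818-146223641) was the one called. It also lies in the 10 kb window of Cfap61. Empty vector had 27.2, 33.3 and 27.6 CPM, Smndc1 shRNA 35.9, 51.2 and 38.6, and Atrx shRNA 45.8, 32.8 and 26.9. The Smndc1 shRNA libraries do not overlap with empty vector and the Atrx shRNA libraries do. The trended difference with Smndc1 shRNA was 0.55 ± 0.14 (adjusted p = 0.0221; TMM factors 0.51, adjusted p = 0.595), and with Atrx shRNA 0.26 ± 0.15 (adjusted p = 0.589). The call held in 5 of 9 fits with 1 library left out, with adjusted p of 0.308 and 0.113 without empty vector replicate 1 or 2 and 0.111 and 0.0704 without Smndc1 shRNA replicate 2 or 3.

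At Nkx2-2 the called region lies in the body, 4.20 kb downstream of the listed start (chr2:147181873-147182526). It had 22.7, 23.1 and 21.0 CPM in empty vector, 27.2, 34.4 and 25.5 with Smndc1 shRNA and 29.7, 35.5 and 34.9 with Atrx shRNA, so both shRNA groups lie above empty vector. With trended offsets it rose by 0.63 ± 0.16 with Atrx shRNA (adjusted p = 0.0414; TMM factors 0.58, adjusted p = 0.774), and the Smndc1 shRNA difference was 0.44 ± 0.16 (adjusted p = 0.181). In 4 of 9 fits with 1 library left out it was called. The adjusted p was 0.311 and 0.239 without empty vector replicate 1 or 2, 0.0604 without Smndc1 shRNA replicate 1, and 0.251 and 0.295 without Atrx shRNA replicate 2 or 3. Just outside the threshold, the neighbouring Nkx2-2 regions chr2:147183859-147184725 (0.46 ± 0.12, adjusted p = 0.0535) and chr2:147185519-147186089 (0.54 ± 0.15, adjusted p = 0.0897) had Atrx shRNA libraries above empty vector on the trended scale. The strongest Nkx2-2 region, by contrast in values, was at 0.09 ± 0.10 (95% interval -0.11 to 0.29).

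Regions of Myt1 and Glis3 were called between the 2 shRNAs and not against empty vector. The Myt1 region (chr2:181775637-181776262, in the body) had 24.4, 11.4 and 18.5 CPM in empty vector, 11.9, 9.66 and 11.7 with Smndc1 shRNA and 21.0, 19.5 and 20.6 with Atrx shRNA. The 2 shRNA groups do not overlap, and empty vector spans both. With trended offsets it was lower with Smndc1 shRNA than with Atrx shRNA by a log2 difference of -0.86 ± 0.22 (adjusted p = 0.0242; TMM factors -0.88, adjusted p = 0.191). Against empty vector it differed by -0.61 ± 0.22 with Smndc1 shRNA (adjusted p = 0.15) and by 0.25 ± 0.21 with Atrx shRNA (adjusted p = 0.747). It was called in 3 of 9 fits. Its adjusted p was 0.0505 without empty vector replicate 1, 0.0933 and 0.149 without Smndc1 shRNA replicate 1 or 2, and 0.104, 0.0904 and 0.0972 without Atrx shRNA replicate 1, 2 or 3.

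The Glis3 region (chr19:28436394-28436959) lies in the body, 243.4 kb from the listed start, with a mean count of 36.6. It had 3.999, 6.10 and 5.95 CPM in empty vector, 2.65, 2.203 and 5.41 with Smndc1 shRNA and 8.35, 8.21 and 9.58 with Atrx shRNA. The Atrx shRNA libraries lie above both other groups, which overlap each other. The trended difference between Smndc1 shRNA and Atrx shRNA was -1.39 ± 0.36 (adjusted p = 0.0276; TMM factors -1.35, adjusted p = 0.175). Against empty vector it was -0.68 ± 0.36 with Smndc1 shRNA (adjusted p = 0.432) and 0.71 ± 0.34 with Atrx shRNA (adjusted p = 0.472). It was called in 4 of 9 fits, with adjusted p of 0.212 and 0.135 without Smndc1 shRNA replicate 1 or 2 and 0.175, 0.108 and 0.0602 without Atrx shRNA replicate 1, 2 or 3.

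**Figure D5:**
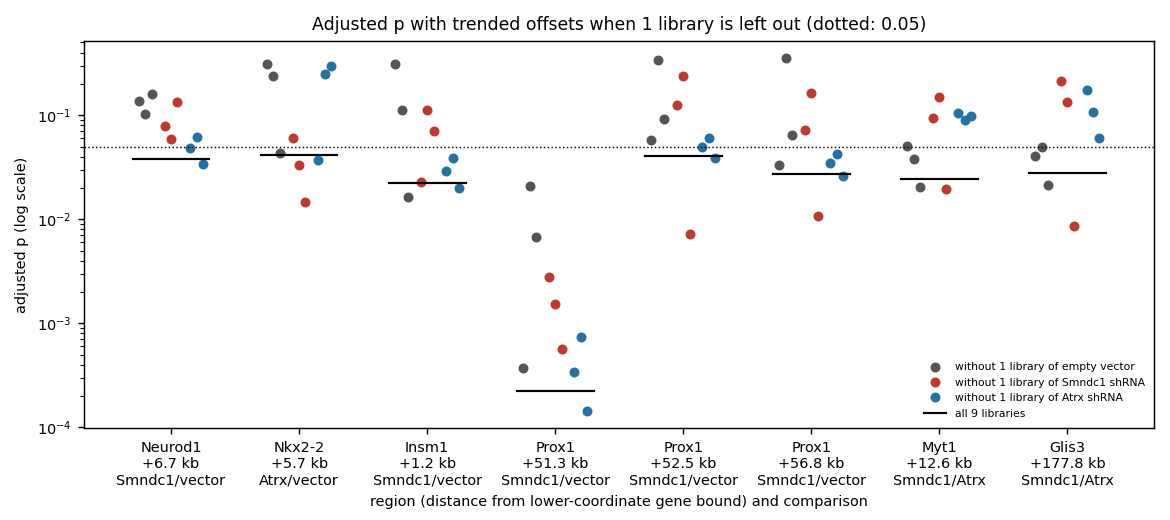
edgeR adjusted p (log scale, trended offsets) of the 8 called regions with all 9 libraries (bar) and with 1 library left out (points, coloured by the group it came from); the dotted line is 0.05. The Prox1 region at +51.3 kb stays under the line in all 9 fits, up to 0.021, while each of the other 7 crosses it in at least 4.

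Both Neurog3 regions lie upstream of the gene that starts the program. The stronger one had 9.33, 11.2 and 9.24 CPM in empty vector, 8.68, 9.999 and 9.81 with Smndc1 shRNA and 14.0, 14.3 and 13.2 with Atrx shRNA. All Atrx shRNA libraries lie above the other 6, but the trended difference from empty vector (0.55 ± 0.25, adjusted p = 0.442) was not called. The weaker one (chr10:62127479-62127979) had 3.11, 2.85 and 2.97 CPM in empty vector, 4.41, 5.25 and 7.27 with Smndc1 shRNA and 3.69, 7.83 and 6.01 with Atrx shRNA. Both shRNA groups lie above empty vector there (trended differences 0.85 ± 0.39, adjusted p = 0.329, and 0.92 ± 0.39, adjusted p = 0.398), with none called.

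Other genes of the same networks were read in the same fits with trended offsets. Of 83 regions at 16 other islet transcription factors, 6 were called higher and 0 lower with Smndc1 shRNA (median 0.21), and 4 higher and 1 lower with Atrx shRNA (median 0.18). The 6 lie at Irx1 and Irx2, which are alpha cell homeobox genes, at Nkx6-1, a beta cell factor, and at Foxa2, a pioneer factor. The strongest change was at Irx1 (chr13:71959221-71959757, from 9.76 to 21.1 CPM, log2 difference 1.2 ± 0.21, adjusted p = 0.000119), which TMM factors also called (1.11, adjusted p = 0.022). With Atrx shRNA the called regions were at Irx1, Nkx6-1 and Pax6, higher, and at Mafa, lower (-0.50 ± 0.13, adjusted p = 0.0405). Of 44 regions at Notch and progenitor regulators, 1 was called lower with Smndc1 shRNA, at Lfng, which encodes a fringe glycosyltransferase (from 16.0 to 7.08 CPM, -1.07 ± 0.25, adjusted p = 0.00764), and 0 with Atrx shRNA. Of 61 regions at genes for Insm1 corepressor partners, 1 was called higher with Smndc1 shRNA, at Gse1 (0.70 ± 0.17, adjusted p = 0.0109), and 0 with Atrx shRNA. Of 91 regions at paralogs of the 10 genes, 1 was called with Smndc1 shRNA, higher at Myt1l (0.58 ± 0.13, adjusted p = 0.00508), and 1 with Atrx shRNA, lower at Rfx1 (-0.50 ± 0.12, adjusted p = 0.0249). Of 96 tested regions at endocrine product genes, 2 were called higher and 1 lower with Smndc1 shRNA, and 1 lower with Atrx shRNA, at Gcg, the glucagon gene (-0.78 ± 0.16, adjusted p = 0.00359).

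The genes most like 4 members were found by the root mean square difference, over the 9 libraries, of log2 summed CPM (trended offsets) after subtracting each gene's empty vector mean. Genes that share a region with the member were left out, but the genes found could share regions with each other. For Prox1 they were 1700017B05Rik (0.090), Eid3 (0.095) and Ulk2 (0.096), where the median over 13887 genes was 0.40. For Neurod1 they were Tmem67 (0.050), Rbm12b2 (0.050) and BC005537 (0.058), with a median of 0.30. Tmem67 and Rbm12b2 also had the same mean differences, 0.22 with Smndc1 shRNA and 0.29 with Atrx shRNA, so they may not be separate matches. For Nkx2-2 they were Ippk (0.044), H3c1 (0.049) and H2ac10 (0.053), with a median of 0.26. For Insm1 they were Rpl10a (0.058), Nlrp3 (0.072) and Pm20d2 (0.076), with a median of 0.31 over 13885 genes.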

How the data were processed

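ATAC-seq was measured in 9 alphaTC1 libraries, 3 per group, with 75 bp paired-end reads per the labels' protocols. The authors deposited raw counts per consensus region (whole numbers, not scaled) and the mm10 position of each region. Bowtie2 2.4.4 and MACS2 2.2.7.1 are among the tools in the submitters' processing notes. The merging of regions, and whether reads, fragments or insertions were counted, is not given in the sources used here. Of the per-sample columns, 0 were unmatched to a sample.

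Regions were joined to gene bounds and promoters of RefSeq GRCm38.p6, the same build. The quasi-likelihood test of edgeR 4.0.16 (R 4.3.3; TMM factors, filterByExpr with minimum count 10, robust, all 9 libraries, group only) gave log2 fold changes and Benjamini-Hochberg adjusted p over 80345 regions, or over 17004 genes for counts summed per window, which were scaled by totals and TMM factors of their own. Trended offsets (a loess curve of each library's log2 count on the mean) were a second fit. CPM are counts scaled to the TMM library size, given as mean ± SD. The fits were tested on simulated data for Smndc1 shRNA against empty vector. The simulated counts were built with the trended offsets themselves, so the recovery cannot rank the 2 fits. Of 100 regions changed 2-fold, TMM factors recovered 16 and trended offsets 28. Of 100 regions changed 4-fold they recovered 74 and 81. Among regions left unchanged, TMM factors called 2 and trended offsets 6. Regions not called can therefore still differ by 2-fold. Other alternatives were DESeq2, limma voom, other filters and extensions, a replicate block, and libraries left out.

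Regions were named if highest at their gene in mean CPM over the 9 libraries (not per kb) or called by either fit. The genes, lists and rule were chosen with earlier results of these data known. Total counts of 5.29 to 8.15 M limit precision at weak regions. Regions were not placed in exons or introns, and Insm1 and St18 promoters were not used here.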

Additional observations from a re-analysis of the deposited data

Results flagged for a closer look

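In 2 regions the effects of the 2 knockdowns differed by a direct test of Smndc1 shRNA against Atrx shRNA (edgeR, trended offsets). At the Myt1 region chr2:181775637-181776262 the log2 difference was -0.86 (adjusted p = 0.0242). At the Glis3 region chr19:28436394-28436959 it was -1.39 (adjusted p = 0.0276). With TMM factors neither passed, with adjusted p of 0.191 and 0.175. At Glis3 the mean count was 36.6, so this value rests on few counts per library.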

How the results depend on the processing

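With TMM factors 0 member regions were called, and the counts moved with the processing. For Smndc1 shRNA, Atrx shRNA and the difference between the shRNAs, trended offsets called 5, 1 and 2 regions. Added after seeing the data, trended offsets gave 3, 1 and 2 for gene bodies with no extension, 6, 1 and 2 for an extension of 50 kb, and 5, 1 and 2 without replicate 3 of every group. The last counts do not hold the same regions as the fit of all 9 libraries. The calls lost were Neurod1 79458989 (edgeR adjusted p = 0.294), Nkx2-2 147181873 (0.148) and Myt1 181775637 (0.051). Without replicate 3 of every group, TMM factors called 1 between the shRNAs. A mean count of at least 50 gave 1 for Smndc1 shRNA. Leaving out 1 library at a time gave 0 to 5, 0 to 3 and 0 to 3 regions over both fits (TMM alone 0, 0 and 0 to 1). Of summed windows for Smndc1 shRNA, 1 was called by DESeq2 and 1 without replicate 3 of every group by either fit, and 0 to 1 when 1 library was left out.

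Same-numbered libraries were not taken as pairs, and the labels tie no batch to a number. On TMM levels, correlations of deviations from group means ran from -0.024 to 0.275 for same-numbered replicates 1 and 2. Between replicate 3 libraries they were highest, at 0.343 to 0.441 (0.138 to 0.204 with trended offsets). Pairs with different numbers ran from -0.403 to 0.33. The replicate 3 libraries therefore share deviations across the groups, which the fits without a block leave in the spread. With the replicate block, 2 regions were called for Smndc1 shRNA (1 higher, 1 lower), 0 for Atrx shRNA and 2 between the shRNAs. Of all 80345 regions the block called 307 higher and 961 lower for Smndc1 shRNA, and 172 higher and 442 lower between the shRNAs. For Atrx shRNA it called 156 higher and 75 lower. With the block and trended offsets 5, 3 and 2 member regions were called. The calls of that fit over all regions are not given here, since the totals above are of the block with TMM factors. These 3 counts thus have no share beside them. For summed windows the block called 1 for Smndc1 shRNA and 3 for Atrx shRNA, and with trended offsets 1 and 4. Here too the counts with trended offsets have no share over all genes beside them. Of all 17004 genes the block with TMM factors called 122 higher and 203 lower for Smndc1 shRNA. For Atrx shRNA it called 252 genes higher and 107 lower.

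The 8 called regions kept their sign in all 231 alternative values. These are refits of the libraries in which the regions were picked, so a kept sign gives no separate support. Of 45 named values, 18 changed sign in some alternative, none of them called with all 9 libraries; the cause was not tested. For Smndc1 shRNA, a mean count of at least 50 gave 0.01 at Neurod1 79456410, 0.02 at Nkx2-2 147194761 and 0.00 at Neurog3 62128091. Trended offsets gave 0.01 at Neurog3 62128091, 0.02 there with the block, and without replicate 3 of every group 0.03 at Nkx2-2 147194761. Without replicate 3 of every group, Neurod1 79458989 differed between the shRNAs by 0.00. With 1 library left out, the log2 differences ranged, by region start, as given here. At Neurod1 79456410 they ranged from -0.37 to 0.15 for Smndc1 shRNA. At Neurod1 79458989 they ranged from -0.02 to 0.34 for the shRNAs against each other. At Nkx2-2 147194761 they ranged from -0.25 to 0.15 for Smndc1 shRNA, -0.07 to 0.35 for Atrx shRNA, -0.42 to 0.04 for the shRNAs against each other. At Prox1 190169992 they ranged from -0.21 to 0.23 for the shRNAs against each other. At Prox1 190174203 they ranged from -0.17 to 0.23 for the shRNAs against each other. At Myt1 181766770 they ranged from -0.27 to 0.12 for Smndc1 shRNA, -0.41 to 0.03 for Atrx shRNA, -0.11 to 0.34 for the shRNAs against each other. At Myt1 181775637 they ranged from -0.07 to 0.46 for Atrx shRNA. At Glis3 28679502 they ranged from -0.06 to 0.25 for Smndc1 shRNA. At Rfx6 51677507 they ranged from -0.38 to 0.02 for Smndc1 shRNA, -0.75 to 0.08 for Atrx shRNA, -0.27 to 0.52 for the shRNAs against each other. At Neurog3 62128091 they ranged from -0.12 to 0.11 for Smndc1 shRNA. At St18 6729189 they ranged from -0.29 to 0.08 for Atrx shRNA, -0.37 to 0.01 for the shRNAs against each other.

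Depth limits what weak regions can show: 36 of the 74 members had a mean count under 50.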
